A study of Mus musculus with 20 samples.

Results

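The genes of 10 ion channels were followed across genotype and age in RNA from isolated microglia. Trpm6, Trpm7, Trpm2 and Trpv2 belong to the transient receptor potential (TRP) family, and Kcnk6 and Kcnk13 are potassium channel genes. Hvcn1 is a proton channel gene, P2rx4 and P2rx7 are ATP-gated channel genes, and Panx1 is a large-pore channel gene. The 10 genes were chosen by symbol, with earlier results of these data known, and all were found among the 24062 genes of the table. RNA was sequenced from microglia of 20 male mice of the B6D2F1/J strain, with 1 mouse and its whole brain per sample and no pooling. mThy1-Asyn mice, called mThy1 here and labelled HEM, carry human wild-type α-synuclein under the murine Thy1 promoter, which drives expression in neurons, from an insertion on the X chromosome, and wild-type (WT) mice carry no transgene. At 7 months there were 6 mThy1 and 4 WT mice, and at 10 months 5 mThy1 and 5 WT mice. The comparison asks which of these channel genes differ between genotypes at each age, and whether the difference itself changes between the ages.

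Microglia use ion channels to sense nucleotides released by other cells, to hold their membrane potential and to balance charge during the oxidative burst. ATP opens the P2X receptors, of which P2X7 needs high ATP and triggers potassium efflux, a step that precedes assembly of the NLRP3 inflammasome and release of interleukin-1β. Tandem pore domain potassium channels carry background potassium current, the voltage-gated proton channel removes the protons that NADPH oxidase leaves behind, and TRP channels pass calcium and, for TRPM6 and TRPM7, magnesium.

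The values are counts of reads per gene divided by a size factor for each mouse, called normalized counts. Between 33404096 and 77806399 reads were counted on genes per mouse. In every mouse the summed normalized count of 12 microglia markers was at least 1760530, and that of 15 neuron markers was at most 2331. Thy1 reached 392 to 1298 normalized counts in mThy1 and 17.7 to 47.6 in WT mice at 7 months, and 1117 to 1741 against 9.41 to 32.4 at 10 months, so the labels of genotype were met without overlap. Mice of the ages were normalized and processed apart, so levels are compared within an age, and age cannot be told apart from the processing.

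Ranked per transcript length, in TPM (reads per length of transcript, scaled to the same total in every mouse) computed from the recovered reads, Kcnk6 had the highest level of the 10 genes in every group and Trpm6 the lowest. In WT mice of 7 months, mean levels fell from 187 ± 17.2 TPM for Kcnk6 (SD, n = 4) through 128 ± 21.3 for P2rx7 and 83.7 ± 5.85 for Hvcn1 to 47.1 ± 3.43 for Trpv2 and 46.9 ± 3.31 for Kcnk13. Below these stood Trpm7 at 38.1 ± 6.06, P2rx4 at 26.0 ± 1.77, Trpm2 at 17.3 ± 2.49, Panx1 at 3.34 ± 0.378 and Trpm6 at 0.0261 ± 0.0522 TPM. Kcnk6, P2rx7, Hvcn1 and the genes after them kept apart over single mice in this ranking, as did Trpm2, Panx1 and Trpm6 in all 4 groups. The ranges of Trpv2 and Kcnk13 overlapped in all 4 groups, and in WT mice of 7 months those of Kcnk13 and Trpm7 did as well. For scale, P2ry12, a defining microglial gene, had a mean of 7671 ± 776 TPM in the same WT mice.

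**Figure D1:**
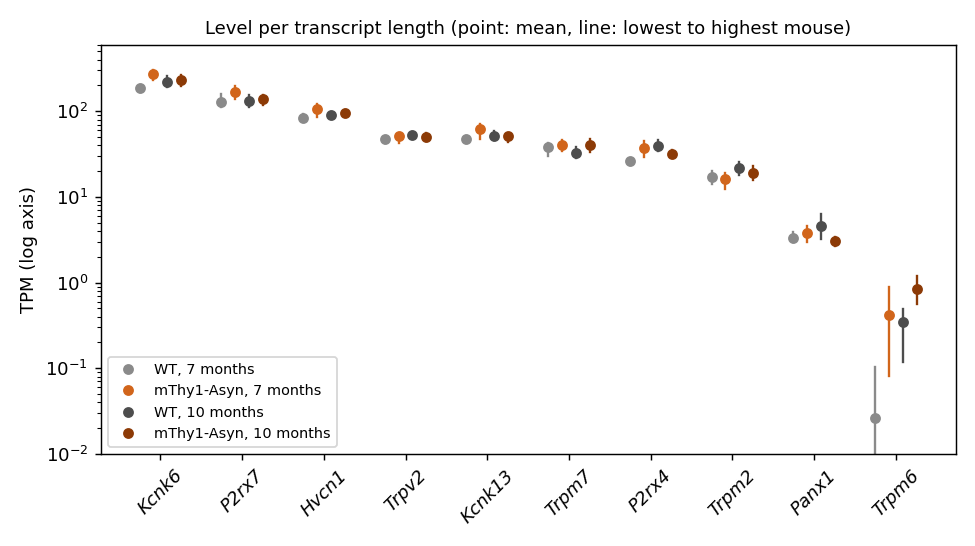
Levels of the 10 channel genes per transcript length, in TPM on a log axis, with genes ordered by their mean in WT mice of 7 months. Points are group means and lines run from the lowest to the highest mouse of the group. Kcnk6 stood highest and Trpm6 lowest in each of the 4 groups, and the line of Trpm6 in WT mice of 7 months runs off the axis because 3 of these mice had no read.

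Trpm6 and Trpm7 encode the pair of TRP channels that are fused to a protein kinase. TRPM6 is best known for magnesium uptake in gut and kidney, whereas TRPM7 is found in most cell types. Trpm6 lies on chromosome 19 from 18749983 to 18892511 on the plus strand of mm10, and Trpm7 on chromosome 2 from 126791565 to 126876230 on the minus strand. The starts of both genes are shown because this pair of relatives differed in level and in the CG content around the start. Each RefSeq window (GRCm38.p6) holds 250 bases before and 50 after the start, on the strand of the gene, with CG dinucleotides in capitals, and the RefSeq start of Trpm6 lies upstream of the annotated gene start given above.
Trpm6, chr19:18749480-18749779, plus strand: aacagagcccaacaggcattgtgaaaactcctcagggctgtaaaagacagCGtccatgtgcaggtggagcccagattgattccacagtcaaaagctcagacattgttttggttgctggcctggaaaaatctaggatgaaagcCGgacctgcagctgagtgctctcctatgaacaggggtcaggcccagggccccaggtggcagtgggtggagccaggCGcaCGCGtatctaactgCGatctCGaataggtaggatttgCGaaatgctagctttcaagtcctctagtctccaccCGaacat
Trpm7, chr2:126876212-126876511, minus strand: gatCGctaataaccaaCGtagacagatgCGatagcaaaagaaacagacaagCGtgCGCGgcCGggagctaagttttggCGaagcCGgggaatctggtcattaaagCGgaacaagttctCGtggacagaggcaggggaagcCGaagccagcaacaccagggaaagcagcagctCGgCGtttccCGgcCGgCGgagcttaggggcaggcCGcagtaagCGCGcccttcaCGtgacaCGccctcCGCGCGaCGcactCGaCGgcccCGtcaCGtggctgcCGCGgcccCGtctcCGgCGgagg
The Trpm6 window holds 9 CG dinucleotides, near the median of 7 over 32851 RefSeq windows of this length, and the Trpm7 window holds 35, more than 93.05% of these windows. Neither window holds the letters GAGGAA, the core of the site of PU.1, the lineage factor of macrophages, on either strand, which 28.3% of all windows hold. These are descriptions of the reference sequence, and DNA methylation was not analysed here.

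At 7 months, Trpm6 was found in all mThy1 mice and in 1 of 4 WT mice. The mThy1 mice had 8.96, 32.7, 102, 39.1, 66.0 and 37.6 normalized counts (replicates 1 to 6), from 8, 32, 150, 46, 65 and 31 reads. The WT mice had 0, 0, 0 and 11.7, the last from 11 reads. In the 3 WT mice with no read, a count of 0 allows up to 2.70, 3.12 and 3.54 normalized counts (3 reads), a limit that covers counting error only. Of the 6 mThy1 mice, 5 lay above every WT mouse, and replicate 1 lay below WT replicate 4, with overlapping 95% Poisson intervals (3.87 to 17.7 and 5.84 to 20.9).

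The Trpm6 means at 7 months were 47.7 ± 32.3 (SD, n = 6) and 2.93 ± 5.85 (n = 4), a ratio of 16.3. On the log2(value + 1) scale the difference was 4.37 (standard error 0.82, 95% interval 2.64 to 6.11, limma adjusted p = 0.00585 over 13887 genes), and a two-sided exact permutation test of the 10 mice gave p = 0.00952, where the smallest possible is 0.00476. Because most WT values are 0, the size of the log2 difference depends on the pseudocount: it was 5.11 with 0.5 and 2.71 with 5. Trpm6 passed the filter on low values (10 normalized counts in at least 4 mice) through the mThy1 group. As these are bulk samples, more cells with the transcript and more transcript per cell cannot be told apart. Which cell type the Trpm6 reads came from was not tested.

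**Figure D2:**
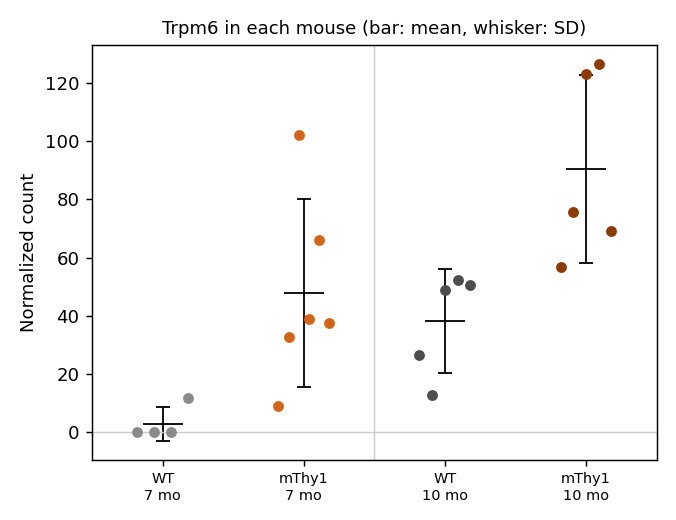
Normalized counts of Trpm6 in each mouse of the 4 groups. Points are mice, the horizontal bar is the group mean and the whisker the SD. At 7 months WT mice lie at 0 except for 1 at 11.7, and at 10 months every mThy1 mouse, from 56.9 upward, lies above every WT mouse, none of which exceeds 52.4.

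At 10 months, Trpm6 was detected in every mouse. The mThy1 mice had 56.9, 75.8, 123, 127 and 69.2 normalized counts and the WT mice 26.5, 12.7, 49.0, 52.4 and 50.5. The groups did not overlap, which was so for 7.27% of the 13627 genes tested at this age. The means were 90.3 ± 32.3 and 38.2 ± 17.7 (n = 5 each), a ratio of 2.36, and the log2 difference was 1.32 (standard error 0.39, 95% interval 0.49 to 2.15). Over all genes this missed the cutoff of 0.05 (limma adjusted p = 0.0525). The exact permutation test of the 10 mice gave p = 0.00794, the smallest possible. Every gene without overlap gives this p at 5 against 5 mice, so it only restates the separation. DESeq2 on the recovered reads gave an adjusted p of 0.0108 and edgeR did not pass the cutoff. Trpm6 at 10 months passed in 5 of 20 alternatives, with adjusted p from 0.0108 to 0.584. Among the 10 fits without 1 mouse it passed in 1. On the log2 scale the genotype effect on Trpm6 was smaller at 10 than at 7 months by the interaction test in limma (-3.06, standard error 0.93, adjusted p = 0.0493). With a pseudocount of 5 this value was -1.50 and did not pass (adjusted p = 0.176), and it passed in 8 of 29 alternatives. In normalized counts, with the ages normalized apart, the gap between means was not smaller at 10 months (90.3 against 38.2) than at 7 (47.7 against 2.93).

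Trpm7 passed the cutoff at 10 months and not at 7. At 7 months the mThy1 mice had 6748, 6367, 7716, 7114, 6180 and 5976 normalized counts and the WT mice 6578, 7180, 5542 and 6984, and the ranges overlapped throughout (log2 difference 0.026, 95% interval -0.16 to 0.22, adjusted p = 0.901). At 10 months the mThy1 mice had 7048, 6231, 6160, 5520 and 6454 against 5104, 4997, 4832, 5989 and 4787 in WT mice, with 4 of 5 mThy1 mice above every WT mouse. Trpm7 was higher in mThy1 mice at this age (6282 ± 551 against 5142 ± 490, log2 difference 0.29, standard error 0.079, limma adjusted p = 0.0405). It passed the cutoff in 9 of 20 alternatives, and leaving out any of 8 of the 10 mice moved the adjusted p to between 0.0701 and 0.0947. Its change between the ages did not pass (difference 0.26, adjusted p = 0.203).

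Trpm2 encodes a calcium-permeable channel opened by ADP-ribose and oxidative stress, and lies on chromosome 10 from 77907722 to 77970563. It did not pass at either age. Its normalized counts at 7 months were 3400, 2979, 2279, 3351, 2364 and 3534 in mThy1 and 2749, 3689, 3492 and 3262 in WT mice (log2 difference -0.16, adjusted p = 0.535). At 10 months they were 3376, 3261, 3841, 2812 and 3143 against 4128, 4469, 3878, 3523 and 3323, and all 5 mThy1 mice lay below the WT mean (log2 difference -0.23, 95% interval -0.43 to -0.03, unadjusted p = 0.0265, limma adjusted p = 0.149). Trpv2, a calcium-permeable channel linked to phagocytosis in macrophages (chromosome 11 from 62574486 to 62600515), had 3341 ± 264 against 3242 ± 301 at 7 months and 3102 ± 330 against 3371 ± 172 at 10 months, and neither difference passed (log2 0.044 and -0.12, adjusted p = 0.794 and 0.356). Single mice ranged from 2921 to 3724 at 7 months and from 2784 to 3630 at 10 months, with overlap of the genotypes at both ages.

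At 7 months, 3 of the 10 genes passed the cutoff, where 4.93% of the 13887 genes tested did. All 3, Trpm6, Kcnk6 and P2rx4, were higher in mThy1 mice, a direction found at this cutoff in 2.23% of all genes tested. The log2 difference was above 0 in 9 of 10 (Trpm2 was the exception), against 6967 of the 13887 genes tested. An unadjusted p under 0.05 was found in 6 of 10, against 2962 of the 13887. The median was 0.30, against 0.0009 over all genes tested. Trpm6 passed the filter on low values through the mThy1 group. Without it, 2 of the other 9 passed the cutoff, as higher, and their median was 0.27. The members were chosen with earlier results of these data known, so the shares over all genes are given for scale only. Leaving out 1 mouse left between 2 and 6 members past the cutoff.

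Kcnk6 encodes a tandem pore domain potassium channel that carries potassium efflux in macrophages, and lies on chromosome 7 from 29221926 to 29232515 on the minus strand. At 7 months the mThy1 mice had 17275, 17914, 18308, 13623, 16747 and 15282 normalized counts and the WT mice 11569, 12189, 11447 and 12366. Every mThy1 mouse lay above every WT mouse, which holds for 7.53% of genes tested in either direction, and Kcnk6 was the only one of the 10 genes separated in this way at 7 months. The means were 16525 ± 1771 and 11893 ± 453, a ratio of 1.39 (log2 difference 0.47, standard error 0.083, limma adjusted p = 0.00457). It passed in all 20 alternatives, with adjusted p between 1.61e-05 and 0.0271. At 10 months the values were 11840, 11771, 12750, 14055 and 15365 against 14949, 12360, 12091, 12216 and 11938, and the groups overlapped (log2 difference 0.047, 95% interval -0.14 to 0.23, adjusted p = 0.791). The effect was smaller at 10 months (difference -0.42, standard error 0.12, adjusted p = 0.0404, past the cutoff in 13 of 29 alternatives).

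Kcnk13, on chromosome 12 from 99964499 to 100062682, encodes the background potassium channel that sets the resting potential of microglia. At 7 months it had 3175, 3172, 3237, 2261, 2290 and 2832 normalized counts in mThy1 and 2314, 1968, 2369 and 2300 in WT mice. Replicates 4 and 5 of the mThy1 group lay within the WT range and the other 4 above it. The log2 difference of 0.32 (95% interval 0.08 to 0.57, unadjusted p = 0.0113) did not pass over all genes (limma adjusted p = 0.110), except without mThy1 replicate 4 (adjusted p = 0.0426). At 10 months it was -0.053 (2202 ± 187 against 2287 ± 224, adjusted p = 0.750).

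Hvcn1, the voltage-gated proton channel gene on chromosome 5 from 122206804 to 122242297, also had mThy1 replicates 4 and 5 lowest. At 7 months it had 6260, 5858, 6046, 4588, 4649 and 5914 against 4364, 4329, 4824 and 4758 normalized counts, and these mice lay inside the WT range and the other 4 above it (log2 difference 0.27, 95% interval 0.07 to 0.48, unadjusted p = 0.0123, limma adjusted p = 0.115). Without mThy1 replicate 4 the adjusted p was 0.0444. At 10 months the difference was 0.075 (4747 ± 211 against 4506 ± 191, adjusted p = 0.488). Exons of Hvcn1 share 1574 bases with Tctn1 on the opposite strand, and the strand setting of the counting is not given in the sources used here, so reads of the pair may be mixed.

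**Figure D3:**
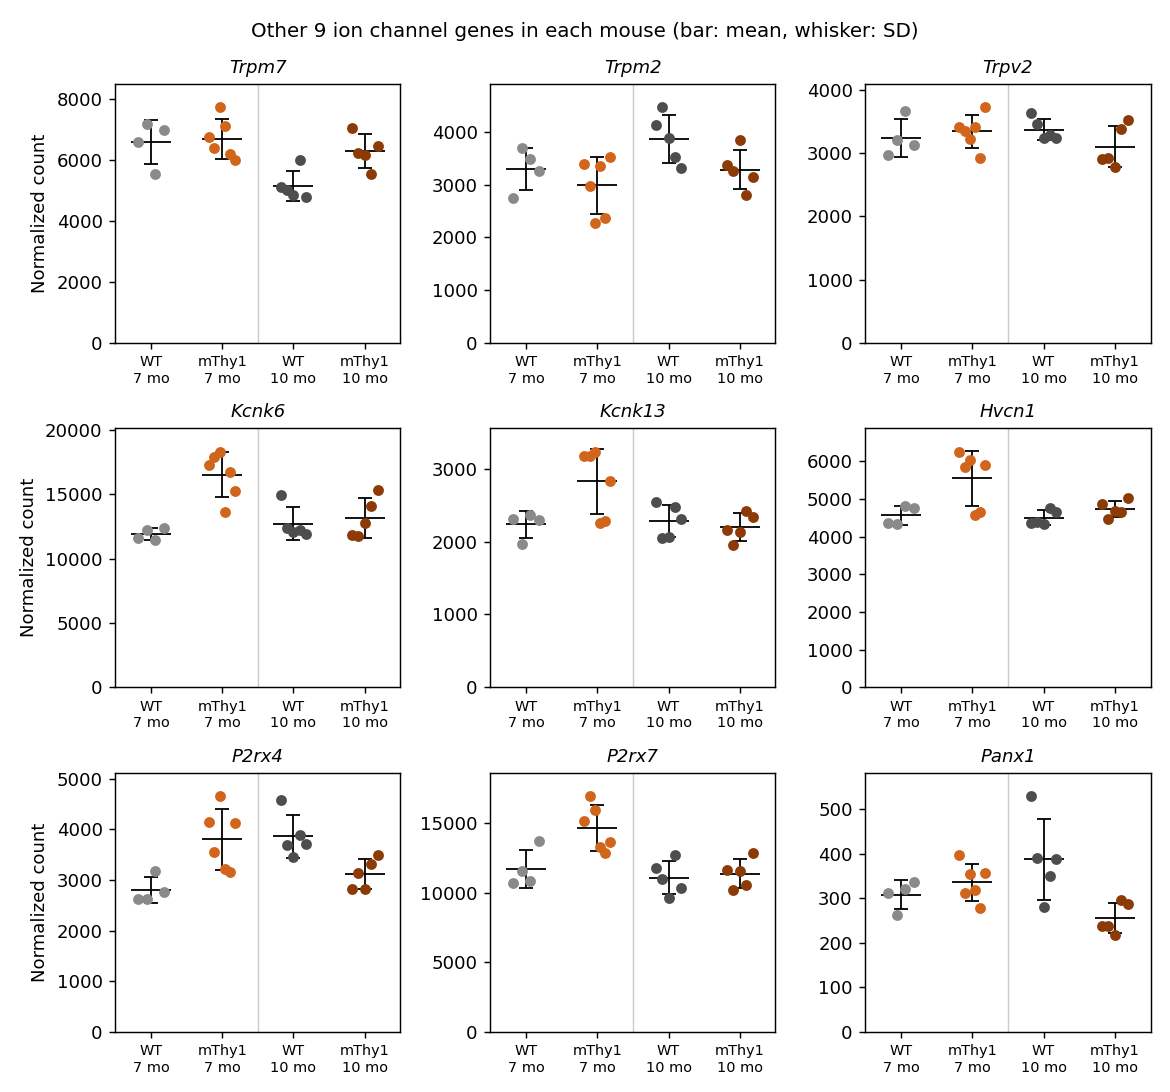
Normalized counts of the other 9 channel genes in each mouse, 1 panel per gene, each with an axis from 0. Points are mice, the horizontal bar is the group mean and the whisker the SD. At 7 months Kcnk6 separates the genotypes (13623 or more against 12366 or less), and P2rx4 stands higher in mThy1 mice at 7 months and lower at 10 months.

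P2rx4 and P2rx7 lie next to each other on chromosome 5, P2rx7 from 122643911 to 122691432 and P2rx4 from 122707544 to 122729738, both on the plus strand. P2X4 is a calcium-permeable receptor known for its rise in spinal microglia after nerve injury. The starts of these neighbours are shown because P2rx4 passed the cutoff at both ages, in opposite directions, and P2rx7 at neither. CG dinucleotides are in capitals, in RefSeq windows of GRCm38.p6 as above, the first of 2 windows for P2rx7.
P2rx4, chr5:122707294-122707593, plus strand: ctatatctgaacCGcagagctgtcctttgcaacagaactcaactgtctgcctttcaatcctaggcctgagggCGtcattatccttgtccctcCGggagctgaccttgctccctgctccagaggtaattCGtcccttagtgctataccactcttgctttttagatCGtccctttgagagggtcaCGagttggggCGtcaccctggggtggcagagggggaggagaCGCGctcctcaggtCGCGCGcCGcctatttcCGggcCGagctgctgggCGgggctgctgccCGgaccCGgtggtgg
P2rx7, chr5:122643677-122643976, plus strand: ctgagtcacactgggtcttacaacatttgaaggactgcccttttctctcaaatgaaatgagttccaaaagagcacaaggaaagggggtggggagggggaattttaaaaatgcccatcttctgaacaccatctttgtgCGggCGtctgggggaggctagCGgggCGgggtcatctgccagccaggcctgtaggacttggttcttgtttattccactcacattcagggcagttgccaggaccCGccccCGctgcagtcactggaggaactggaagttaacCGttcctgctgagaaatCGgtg
The P2rx4 window holds 18 CG dinucleotides and that of P2rx7 holds 8. GAGGAA is found in the P2rx7 window, 10 bases after the start, and not in that of P2rx4. The AP-1 letters TGACTCA, present in 5.2% of all windows, are found in the P2rx7 window near its far end, 249 bases before the start, counting either strand. A match is only a match of letters.

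P2rx4 reversed its direction between the ages. At 7 months the mThy1 mice had 4144, 3542, 4653, 3209, 3149 and 4126 normalized counts and the WT mice 2626, 2627, 3185 and 2766, with 5 of 6 mThy1 mice above every WT mouse. The means were 3804 ± 599 and 2801 ± 264, a ratio of 1.36 (log2 difference 0.43, standard error 0.11, limma adjusted p = 0.0332). At 10 months the mThy1 mice had 2814, 3144, 2829, 3314 and 3485 and the WT mice 4576, 3691, 3448, 3886 and 3711, with 4 of 5 mThy1 mice below every WT mouse. The means were 3117 ± 296 and 3862 ± 428, a ratio of 0.807 (log2 difference -0.31, standard error 0.086, adjusted p = 0.0434). The change between the ages was -0.74 (standard error 0.14, 95% interval -1.04 to -0.44, adjusted p = 0.00451). This interaction passed in all 29 alternatives (adjusted p from 0.000162 to 0.0139). The effects within an age were closer to the cutoff: they passed in 13 of 20 alternatives at 7 months and in 9 of 20 at 10 months, and kept their direction in each. Among fits without 1 mouse the largest adjusted p was 0.120 at 7 months (without WT replicate 1) and 0.108 at 10 months (without mThy1 replicate 3).

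P2rx7 had 15160, 16917, 15943, 13246, 12866 and 13610 normalized counts in mThy1 and 10698, 11535, 10821 and 13666 in WT mice of 7 months. All 6 mThy1 mice lay above the WT mean and 3 above every WT mouse, WT replicate 4 being the highest of its group. The log2 difference was 0.32 (standard error 0.093, 95% interval 0.13 to 0.52) and just missed the cutoff (limma adjusted p = 0.0597). It passed in 7 of 20 alternatives, among them DESeq2 (adjusted p = 0.0251) and the fit without WT replicate 4 (0.0273). At 10 months the difference was 0.037 (11349 ± 1042 against 11073 ± 1194, adjusted p = 0.831). Its change between the ages was -0.29 (unadjusted p = 0.0379, adjusted p = 0.194).

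Panx1, on chromosome 9 from 15002128 to 15045478, encodes a large-pore channel that releases ATP and can act with P2X7. At 7 months it had 398, 311, 354, 319, 277 and 356 normalized counts against 312, 262, 321 and 337, and the groups overlapped (log2 difference 0.12, adjusted p = 0.653). At 10 months it was lower in mThy1 mice, with 238, 238, 218, 297 and 288 against 529, 390, 280, 351 and 388. The means were 256 ± 34.7 and 388 ± 91.0, a ratio of 0.660 (log2 difference -0.58, standard error 0.16, limma adjusted p = 0.0427). WT replicate 1 was the highest mouse, and without it the difference was -0.46 (adjusted p = 0.0928). Panx1 passed in 11 of 20 alternatives at 10 months. Its effect changed between the ages by -0.70 (standard error 0.21, adjusted p = 0.0463, past the cutoff in 12 of 29 alternatives).

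At 10 months, 3 of the 10 genes passed the cutoff, against 7.67% of the 13627 genes tested. Trpm7 was higher in mThy1 mice, a direction found in 3.88% of genes tested, and P2rx4 and Panx1 were lower, as were 3.79%. The log2 difference was above 0 in 5 of 10 genes, and the median was -0.0079, against -0.0026 over all genes tested. No member passed in limma without a filter on low values, which tested 18595 genes (5 members at an unadjusted p under 0.05). With the filter, 5 members and 3209 of the 13627 genes had an unadjusted p under 0.05. edgeR called 3 members and DESeq2 4. Leaving out 1 mouse left between 0 and 3 members past the cutoff, so the 10-month calls stood close to it.

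The effect at 10 months was below that at 7 months in 9 of the 10 genes, Trpm7 being the exception. The difference passed the cutoff in 4, Trpm6, Kcnk6, P2rx4 and Panx1, against 6.6% of the 14030 genes tested. All 4 log2 effects were lower at 10 months, a direction found in 2.73% of genes tested. The Trpm6 difference depended on the pseudocount and passed in 8 of 29 alternatives. The median difference was -0.33 for the 10 genes and -0.0032 over all genes tested. The paper had already reported a smaller fold change of Trpm6 at 10 than at 7 months. Without Trpm6, the genes past the cutoff are Kcnk6, P2rx4 and Panx1. Because members were chosen with earlier results known, these counts, directions and medians are given for scale only. Leaving out 1 of the 20 mice left between 1 and 3 of the 4 past the cutoff, and P2rx4 was past it each time.

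**Figure D4:**
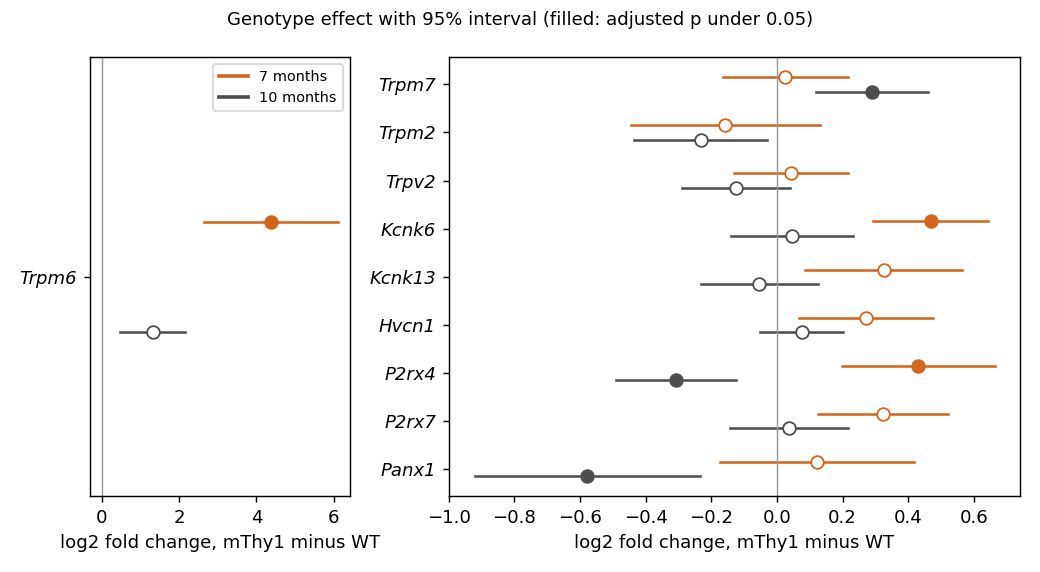
Genotype effect (log2 difference, mThy1 minus WT) of each channel gene at 7 months (orange) and 10 months (grey) with its 95% interval from limma, Trpm6 on an axis of its own. Filled points have an adjusted p under 0.05 over all genes tested. At 7 months Trpm6, Kcnk6 and P2rx4 are filled and above 0, and at 10 months Trpm7 is filled above 0 and P2rx4 and Panx1 below 0.

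The mice of the 7-month mThy1 group were not alike in these genes. Replicates 4 and 5 were the lowest 2 of the 6 mThy1 mice in Kcnk13, Hvcn1, P2rx4 and P2rx7, and replicate 4 was the lowest in Kcnk6. These were not the lowest mice in Trpm6, where replicates 1 and 2 were. The summed normalized count of monocyte and neutrophil markers, of which 9 were tested, was 64010, 63222, 40981, 222372, 337823 and 199563 in mThy1 replicates 1 to 6 and 236401, 224342, 209518 and 67818 in the WT mice. With this sum, on a log2 scale, as a covariate, chosen after the sums were seen, 4 members passed at 7 months: Trpm6 (log2 difference 4.18, adjusted p = 0.00598), Kcnk6 (0.43, adjusted p = 0.00309), P2rx4 (0.38, adjusted p = 0.0307) and P2rx7 (0.26, adjusted p = 0.0336). Over all genes this fit called 743 of 13887, against 684 without the covariate. Without mThy1 replicate 4, 6 members passed, the 4 named and Kcnk13 and Hvcn1, and 858 of all genes. This was the most of the 10 fits without 1 mouse, and without mThy1 replicate 1, 2, 3 or 6 or WT replicate 1 or 2 only 2 passed.

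Markers of other brain cells moved with genotype at 7 months. Of 14 neuron markers tested, 6 were lower in mThy1 mice (median log2 difference -0.997), and the summed normalized count was 811 to 1138 against 1482 to 2331. Of 12 astrocyte markers, 6 were lower and 1 higher (median -1.36, sums 9834 to 12614 against 9601 to 12776), and of 9 oligodendrocyte markers 3 were lower (median -0.89, sums 7907 to 10357 against 12953 to 18513). Of 10 endothelial markers 2 were lower (median -0.60, sums 3678 to 5514 against 5905 to 7280), and of 6 lymphocyte markers 1 (median -0.67, sums 223 to 608 against 511 to 776). None of 9 border macrophage markers passed in limma (median 0.023, sums 22808 to 38543 against 23953 to 32832, 1 at an unadjusted p under 0.05, 0 in edgeR and 1 in DESeq2), and none of 9 monocyte and neutrophil markers in the 3 tools (median -0.45, 0 at an unadjusted p under 0.05). Of 12 microglia markers, Gpr34 was higher (median 0.086). The 3 members that rose did so in the group with the lower neuron, oligodendrocyte and endothelial sums. Since these sums did not overlap between the genotypes, their part in the channel differences cannot be told apart from genotype.

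At 10 months, 4 of 9 border macrophage markers were lower in mThy1 mice (median log2 difference -0.51), and their summed normalized count was 19989 to 25882 against 27007 to 37448. Of 9 monocyte and neutrophil markers 2 were lower (median -1.0, sums 60543 to 160205 against 131336 to 320923), and of 5 lymphocyte markers 2 were lower (median -0.20, sums 167 to 408 against 313 to 708). Of 12 microglia markers 4 were higher, Itgam, Cx3cr1, Sall1 and Siglech (median 0.17, sums 1941940 to 2154440 against 1760530 to 1996600). Of 12 neuron markers 1 was lower (median 0.063), of 12 astrocyte markers 1 was higher (median 0.44), and none of 8 oligodendrocyte (median -0.28) or 10 endothelial markers (median -0.30) passed in the 3 tools, with 0 at an unadjusted p under 0.05 in both. With the monocyte and neutrophil sum as a covariate in limma no member passed at 10 months (3 at an unadjusted p under 0.05), while 31 of 13627 genes did. The log2 differences under it were 0.89 for Trpm6, 0.28 for Trpm7, -0.40 for P2rx4 and -0.70 for Panx1. The border macrophage sums did not overlap between genotypes, so their part in the lower P2rx4 and Panx1 cannot be told apart from genotype.

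Trpm6 has 4 neighbours within 500 kb on chromosome 19 in the table, and all were tested. Ostf1 (18516137 to 18631823, 8375 ± 762 against 8392 ± 932 normalized counts at 7 months), Nmrk1 (18631950 to 18652428), D030056L22Rik (18713193 to 18718428) and Rorb (18930605 to 19111196) did not pass at either age. Their log2 differences at 7 months were -0.00075, -0.46, 0.010 and -0.58, and at 10 months -0.10, -0.53, -0.22 and 0.36. Nmrk1 and D030056L22Rik, both lower in mThy1 mice, had an unadjusted limma p under 0.05 at 10 months (0.0145 and 0.0170). No neighbour did at 7 months. In size none reached the Trpm6 difference at either age, and a local effect was not tested.

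The genes whose log2 values over the 20 mice were most like those of Trpm6 were C1s1 (Pearson r = 0.83), Rbm20 (0.77), Adat1 (0.77), Adcy6 (0.76) and Efna4 (0.75), the highest of 14030 genes. After group means were removed r was 0.67, 0.22, 0.62, 0.63 and 0.58. C1s1, Rbm20 and Efna4 were also low, with group means of 5.05 to 23.5, 2.32 to 20.2 and 6.35 to 21.3 normalized counts. In counts this low a correlation also carries counting noise. Adcy6, an adenylyl cyclase gene, had 305 ± 40.3 against 213 ± 53.9 at 7 months and 344 ± 26.3 against 248 ± 59.4 at 10 months. Among the other members r with Trpm6 ran from -0.18 for Trpm2 to 0.37 for P2rx4, and after removal of group means from -0.45 for Trpm2 to 0.21 for P2rx7. The mice share groups and processing, and these values are descriptions.

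Beyond the 10 genes, 78 other channel genes were listed, 75 were in the table and 42 were tested at each age. Of these, 2 were called higher and 3 lower at 7 months (2.23% and 2.7% of all genes tested), with a median log2 difference of 0.048. At 10 months 4 were higher and 2 lower (3.88% and 3.79% of all genes tested), with a median of 0.096.

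Among the other TRP channels, 7 of 24 were tested at 7 months and none passed in limma, edgeR or DESeq2, with 2 at an unadjusted p under 0.05. For this and the lists below, an unadjusted p under 0.05 was found in 2962 of 13887 genes at 7 months. At 10 months it was found in 3209 of 13627. Mcoln1, a lysosomal calcium channel gene, came nearest (1008 ± 110.3 against 818 ± 57.4, log2 difference 0.30, adjusted p = 0.0933), followed by Pkd2 (0.16, adjusted p = 0.182). At 10 months 8 were tested and Trpm3 rose in mThy1 mice (224 ± 119 against 65.9 ± 16.3 normalized counts, log2 difference 1.61, standard error 0.33, adjusted p = 0.0120), with mThy1 mice at 105 to 365 and WT mice at 47.8 to 84.8. Trpm3, a heat- and steroid-sensitive channel gene, was, with Trpm6, the TRPM gene whose groups did not overlap at 10 months, and at 7 months it did not pass (103.9 ± 107.6 against 103.4 ± 56.6, adjusted p = 0.733).

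Of 12 other tandem pore domain potassium channel genes listed, 4 were tested at each age, and at 7 months Kcnk2 was lower in mThy1 mice (12.3 ± 6.16 against 60.3 ± 23.0, log2 difference -2.28, standard error 0.46, adjusted p = 0.0104). The other 3, Kcnk1, Kcnk3 and Kcnk12, also had values below 0 without passing, and the median of the 4 was -2.18. WT mice alone met the filter on low values for Kcnk1, Kcnk2 and Kcnk3 (lowest WT values 36.4, 41.3 and 22.3). Their mThy1 means were 24.8, 12.3 and 8.20, so the shared direction and the median are descriptions only. The lower Kcnk2 was opposite to Kcnk6, which rose. It went with the lower neuron and astrocyte markers given above, whose part was not tested. At 10 months none of the 4 passed in limma, edgeR or DESeq2 and 0 had an unadjusted p under 0.05. Kcnk12 and Kcnk3 had the smallest p, with log2 differences of -0.55 and -0.64 (adjusted p = 0.452 and 0.512). Of the other 5 P2X receptor genes, P2rx1 was at 1077 ± 579 against 862 ± 313 at 7 months (log2 difference 0.17, adjusted p = 0.885) and at 1075 ± 253 against 559 ± 274 at 10 months (1.07, adjusted p = 0.112). P2rx3 was at 9.93 ± 5.39 against 8.98 ± 4.53 at 7 months and was not tested at 10 months.

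Among 14 other large-pore channel genes, 11 in the table and 7 tested, Lrrc8d, a subunit of the volume-regulated anion channel, rose at 7 months (5730 ± 346 against 4783 ± 338, log2 difference 0.26, adjusted p = 0.0472). Gja1, the connexin 43 gene and also an astrocyte marker, fell at 7 months (70.0 ± 37.8 against 224 ± 80.5, log2 difference -1.77, adjusted p = 0.0110). At 10 months Lrrc8b, another subunit of that anion channel, rose (423 ± 84.1 against 237 ± 61.4, log2 difference 0.85, adjusted p = 0.0128).

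Of 23 other channel genes reported in microglia, 22 were tested. At 7 months Kcnj2, the inward rectifier that holds the resting potential, rose (5591 ± 743 against 3898 ± 211, log2 difference 0.51, standard error 0.093, adjusted p = 0.00489). Ano6, a phospholipid scramblase and ion channel gene, fell at both ages, from 8421 ± 1289 in WT to 6291 ± 558 in mThy1 mice at 7 months (log2 difference -0.41, adjusted p = 0.0198) and from 6807 ± 464 to 5703 ± 190 at 10 months (-0.25, adjusted p = 0.0272). At 10 months Kcna3, a voltage-gated potassium channel gene, rose (287 ± 66.3 against 171 ± 39.0, log2 difference 0.74, adjusted p = 0.0415), as did Itpr3, a calcium release channel gene of the endoplasmic reticulum (3370 ± 263 against 2524 ± 245, 0.42, adjusted p = 0.00862). Stim2, the sensor of calcium in that store, fell (1566 ± 144 against 1936 ± 192, -0.30, adjusted p = 0.0431).

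**Figure D5:**
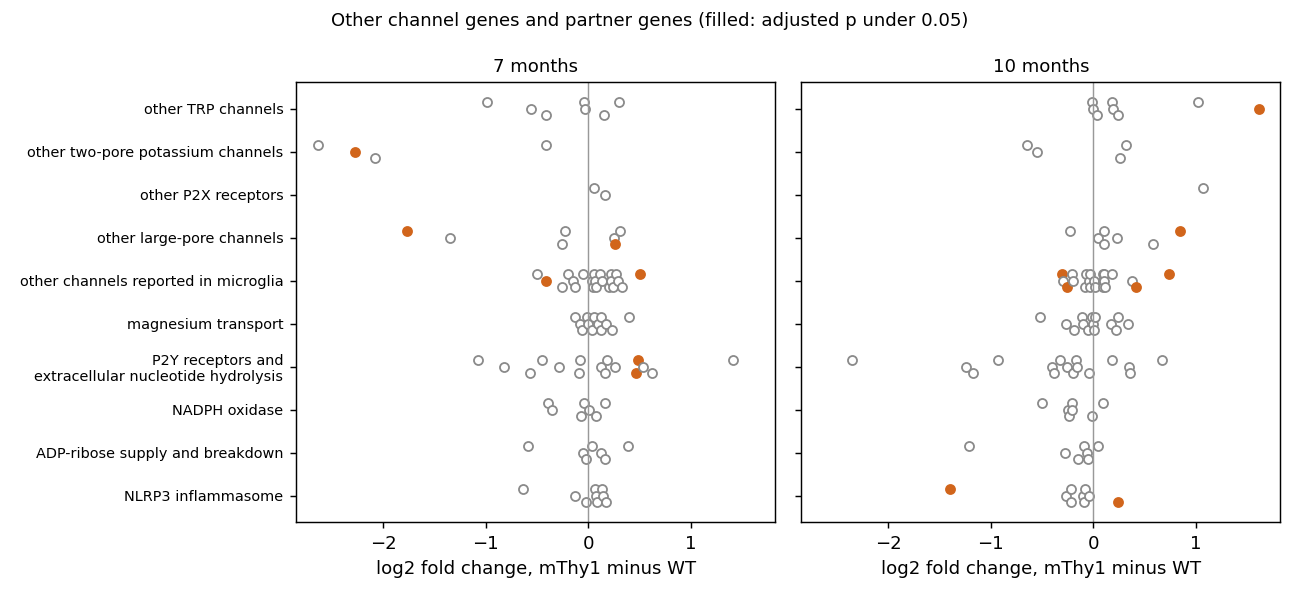
Genotype effect (log2 difference, mThy1 minus WT) of each tested gene of the other channel lists and the partner lists at 7 and 10 months. Each point is a gene, and filled points have an adjusted p under 0.05. Filled points lie on both sides of 0, with Kcnk2 at -2.28 and Gja1 at -1.77 at 7 months and Trpm3 at 1.61 and Il1b at -1.40 at 10 months among the filled points farthest from it.

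Genes that act with these channels were listed in 5 groups, with 57 of 58 in the table, of which 52 were tested at 7 and 53 at 10 months. At 7 months 2 were called higher and 0 lower (2.23% and 2.7% of all genes tested). At 10 months 1 was higher and 1 lower (3.88% and 3.79% of all genes tested). Among P2Y receptors, adenosine receptors and enzymes that break down extracellular nucleotides, 16 were tested, and 2 rose at 7 months. These were Entpd1, the ectonucleotidase CD39 that degrades ATP (51625 ± 5529 against 37288 ± 833, log2 difference 0.46, standard error 0.079, adjusted p = 0.00371), and Adora3, an adenosine receptor gene (6464 ± 730 against 4600 ± 254, 0.48, adjusted p = 0.00475). In both, every mThy1 mouse lay above every WT mouse. At 10 months none passed in limma (7 at an unadjusted p under 0.05), 1 in edgeR, Entpd1, and 4 in DESeq2. Entpd1 was at 37515 ± 1780 against 44970 ± 4646 (-0.26, limma adjusted p = 0.0517) and Adora1 at 145 ± 18.9 against 92.8 ± 24.6 (0.67, adjusted p = 0.0708). Among 9 genes of the NLRP3 inflammasome none passed at 7 months in limma, edgeR or DESeq2 (1 at an unadjusted p under 0.05), and Casp1 had the smallest p in limma (log2 difference 0.17, adjusted p = 0.154). At 10 months Il1b fell (8547 ± 1845 against 23389 ± 8637, -1.40, adjusted p = 0.0222) and Nek7, which couples potassium efflux to NLRP3, rose (14930 ± 1109 against 12603 ± 509, 0.24, adjusted p = 0.0375). Values were below 0 in 8 of the 9. The monocyte and neutrophil marker sum was also lower in mThy1 mice at 10 months (median 126037 against 248589). With it as a covariate in limma no partner gene passed, Il1b included, and 31 of 13627 genes did.

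Magnesium transport genes did not pass at either age in limma (13 tested at 7 and 14 at 10 months, medians 0.057 and -0.010), with 3 and 5 at an unadjusted p under 0.05. edgeR called 0 at both ages, and DESeq2 called 0 at 7 months and 2 at 10 months, Magt1 and Slc41a3. The nearest were Cnnm2 and Nipa2 at 7 months (log2 differences 0.40 and 0.18, adjusted p = 0.0881 and 0.154) and Magt1 and Mmgt1 at 10 months (-0.27 and 0.23, adjusted p = 0.0515 and 0.0875). None of the 7 NADPH oxidase genes passed in limma (medians -0.044 and -0.21), with 1 and 4 at an unadjusted p under 0.05. edgeR called 0 at both ages, and DESeq2 called 0 at 7 months and 1 at 10 months, Cybb. At 7 months Rac2 and Ncf4 had the smallest p (-0.35 and 0.16, limma adjusted p = 0.212 and 0.369), and at 10 months Cybb was at -0.50 (limma adjusted p = 0.103). None of 7 genes of ADP-ribose supply and breakdown passed in limma (medians 0.034 and -0.086), with 0 and 2 at an unadjusted p under 0.05. edgeR called 0 at both ages, and DESeq2 called 0 at 7 months and 1 at 10 months, Bst1. Parg and Cd38 (0.12 and 0.39, limma adjusted p = 0.331 and 0.362) and Bst1 and Nudt5 (-1.22 and -0.27, 0.0707 and 0.117) came nearest at 7 and 10 months.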

How the data were processed

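The authors trimmed paired-end reads with Trim Galore 0.6.7, mapped them to mm10 with HISAT2 2.2.1 and counted them per gene with featureCounts. Annotation release, strand and handling of multiply mapped reads are not given in the sources used here. The signal values as deposited are these counts after division by size factors from DESeq2 1.44.0, set by the authors separately at each age. All values were whole multiples of 1 step per mouse (tolerance 0.1), so reads were recovered. The study's methods name CD11b beads and the labels IBA1 beads.

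limma 3.58.1 (R 4.3.3; trend, robust) was fitted to log2(value + 1) over genes with values of at least 10 in at least 4 mice at 7 months and at least 5 at 10 months, with Benjamini-Hochberg adjustment and a cutoff of 0.05. The interaction was fitted to all 20 mice. edgeR 4.0.16, DESeq2 1.42.0, other pseudocounts, filters, scalings and left-out mice were alternatives. The fits were tested on simulated data. TPM used GENCODE M21 exon lengths, and symbols of 94.5% of genes matched. RefSeq start windows were given for 8 of 10 members, all but Kcnk6 and Hvcn1. Members, lists and tests were chosen with earlier results of these data known. Named were all members, list genes past the cutoff or, in a list with none, at most 2 with the smallest p, tested genes within 500 kb of Trpm6 and the 5 genes most like it. Mice were separate animals, and between mice of a group the chi-square per gene was at least 24.7, where counting noise alone gives about 1. Values of 2 genes are not reported here.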

Additional observations from a re-analysis of the deposited data

Results flagged for a closer look

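In 40 groups of a member's values, 3 held a mouse far from the others of its group, where chance flags about 1 in 20. These were WT replicate 4 at 7 months in Trpm6 (11.7 normalized counts, the other 3 at 0), WT replicate 4 at 10 months in Trpm7 (5989) and WT replicate 1 at 10 months in Kcnk6 (14949). With the other 3 WT mice at 0 in Trpm6, any value above 0 would stand out, so that flag carries no weight. Without WT replicate 4, the Trpm6 difference at 7 months was 5.29 on the log2 scale.

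The genotype effect differed between the ages, by the interaction test in limma, in 4 members: by -3.06 in Trpm6, -0.42 in Kcnk6, -0.74 in P2rx4 and -0.70 in Panx1 (log2, effect at 10 minus effect at 7 months). Of 29 alternatives, Trpm6 passed in 8, Kcnk6 in 13, P2rx4 in 29 and Panx1 in 12. The Trpm6 value depended on the pseudocount.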

How the results depend on the processing

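Trpm6 and Kcnk6 at 7 months and the P2rx4 interaction kept their direction and their side of the cutoff in every alternative run. The number of members called was 5 instead of 3 at 7 months in the fit of all 4 groups, 0 instead of 3 at 10 months with no filter on low values or with the monocyte and neutrophil covariate, and 1 instead of 4 in the interaction with no filter on low values. Of the other channel genes, 0 instead of 6 were called at 10 months with that covariate. Partner genes called were 5 with DESeq2 and 4 in the fit of all 4 groups instead of 2 at 7 months, and at 10 months 10 with DESeq2, 7 with sample quality weights, 5 in the fit of all 4 groups and 0 with the covariate instead of 2. Over all genes DESeq2 called 1159 instead of 684 at 7 months and 1676 instead of 1045 at 10 months, and the covariate left 31 at 10 months. The cause was not tested. Leaving out 1 mouse gave 2 to 6 members, 2 to 6 other channel genes and 2 to 4 partner genes at 7 months, 0 to 3, 3 to 6 and 0 to 7 at 10 months, and 1 to 3 members in the interaction. The Trpm6 log2 difference behind the exact permutation test was then 4.07 to 5.29 at 7 and 0.979 to 1.47 at 10 months (p up to 0.0238). Values near 0 changed sign, none of them past the cutoff. Trpm7 at 7 months was -0.0126 with sample quality weights, -0.0059 with the covariate and -0.0535 to 0.0709 without 1 mouse (-0.0166 without mThy1 replicate 3). Without 1 mouse, Kcnk6 at 10 months ranged from -0.0107 to 0.107, P2rx7 at 10 months from -0.0119 to 0.0875 (-0.0090 without mThy1 replicate 5) and the Trpm2 interaction from -0.1494 to 0.0089.

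Mice share only a replicate number, and same-numbered mice did not deviate together (correlations -0.134 to 0.032 at 7 and -0.050 to 0.10 at 10 months, with 0 of 4 and 1 of 5 mice closest to their own number). With the replicate block 3 members were called at 7 months, 2 at 10 months (Trpm6 and Panx1) and 1 in the interaction (P2rx4), and over all genes 414, 916 and 481 instead of 684, 1045 and 926.

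Trpm6 rested on 0 to 150 reads per mouse, the fewest of the members. Microglial purity was not measured apart from the markers, and each age was processed as a set.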
